A study of Homo sapiens with 38 samples.

Results

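Expression was examined for 9 genes of the interferon pathway that were listed by symbol. They are the interferon regulatory factors IRF1, IRF2, IRF3, IRF7 and IRF9, the signal transducer STAT2, and the interferon-induced genes ISG15, IFI6 and IFIT1. All 9 were found once each by exact symbol among 25504 uniquely named genes, and 8 of them were among the 10865 genes called expressed, which had a mean of at least 1 FPKM over 8 libraries. FPKM is the number of fragments of a gene after normalisation for exon length and for the mapped fragments of its library. IFIT1 was below that level. The list was given by name and not by a measured value.

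The RNA came from RKO, a line of human colorectal cancer cells, with 1 library for each of 8 conditions. Cells received 0.1% DMSO, or 2 µM of NCD38, of NCD38-β2P4 or of NCD38-β2PIPP with the same amount of DMSO, and were harvested after 30 or 4 days. NCD38 inhibits the histone demethylase LSD1, and the conjugates carry it on a pyrrole-imidazole polyamide, a small molecule that binds the minor groove of DNA. The polyamides differ by 1 ring, an imidazole in PIPP in place of a pyrrole in P4, and the sample titles call the conjugates P4_NCD38 and PIPP_NCD38. All 8 libraries come from a single cell line, no genotype differs between them, and nothing in the labels marks separate cultures. The series holds no RNA-seq library of the polyamides without NCD38.

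Interferons bind surface receptors and activate JAK kinases, which phosphorylate STAT proteins. STAT2 joins IRF9 in ISGF3, the complex that binds interferon-stimulated response elements (ISRE) in promoters of interferon-induced genes, while STAT dimers bind gamma-activated sequences (GAS). IRF3 and IRF7 act upstream and switch on interferon genes after sensing of foreign nucleic acid.

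Upstream sequences are shown for 5 of the genes, those that held a match in the search below, and set the interferon-induced genes beside IRF1 and IRF9. RefSeq promoters (GRCh38.p14) were matched for 6 of the 9 genes. The 250 bases before the annotated start were searched on both strands for GAAANNGAAA, a core of the ISRE, and for TTCNNNGAA, the GAS. Capitals mark the matches, which may overlap, and each sequence is written in the direction of its gene.
ISG15, chr1:1013247-1013496, plus strand: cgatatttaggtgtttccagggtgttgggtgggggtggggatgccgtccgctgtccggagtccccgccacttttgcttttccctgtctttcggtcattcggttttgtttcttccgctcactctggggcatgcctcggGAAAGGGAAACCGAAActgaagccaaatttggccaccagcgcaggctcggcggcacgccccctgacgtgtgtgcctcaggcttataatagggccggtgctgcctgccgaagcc
IFI6, chr1:27672193-27672442, minus strand: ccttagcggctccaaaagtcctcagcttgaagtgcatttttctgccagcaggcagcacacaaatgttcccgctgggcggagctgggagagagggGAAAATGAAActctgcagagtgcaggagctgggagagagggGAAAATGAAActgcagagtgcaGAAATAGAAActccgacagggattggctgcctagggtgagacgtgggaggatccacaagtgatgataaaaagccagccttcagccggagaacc
IFIT1, chr10:89392373-89392622, plus strand: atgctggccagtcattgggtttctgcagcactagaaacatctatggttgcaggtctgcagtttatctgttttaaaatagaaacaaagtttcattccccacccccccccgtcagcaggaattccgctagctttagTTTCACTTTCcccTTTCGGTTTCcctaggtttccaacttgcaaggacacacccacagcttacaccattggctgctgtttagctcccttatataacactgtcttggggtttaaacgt
IRF1, chr5:132490774-132491023, minus strand: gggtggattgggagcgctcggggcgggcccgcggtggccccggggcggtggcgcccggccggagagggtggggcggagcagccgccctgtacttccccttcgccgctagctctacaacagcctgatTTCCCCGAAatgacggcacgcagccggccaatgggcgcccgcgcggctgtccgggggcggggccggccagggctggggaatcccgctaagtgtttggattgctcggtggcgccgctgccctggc
IRF9, chr14:24161015-24161264, plus strand: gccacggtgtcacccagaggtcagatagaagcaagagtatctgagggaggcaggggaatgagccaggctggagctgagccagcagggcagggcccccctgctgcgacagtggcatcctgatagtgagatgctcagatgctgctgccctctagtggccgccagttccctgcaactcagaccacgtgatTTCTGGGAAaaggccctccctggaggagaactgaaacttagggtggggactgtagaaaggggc

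All 3 interferon-induced genes held ISRE letters. ISG15, the ubiquitin-like modifier, held 2 overlapping matches that began 113 and 107 bases before the start. IFI6, a small mitochondrial protein that limits apoptosis, held 3 matches, beginning 156, 115 and 93 bases before its start. In IFIT1, which binds viral RNA, 2 matches lay on the reverse strand, where the letters read TTTCNNTTTC. IRF1 and IRF9 held no ISRE letters and 1 GAS match each, beginning 124 and 63 bases before the start. STAT2, on chr12:56360108-56360357 on the minus strand, held neither. Among the 35116 promoters of the same window length, 3.02% held an ISRE match and 0.225% held at least 2, while 6.57% held a GAS match. A match describes letters only, and binding was not measured.

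The depth was estimated from the low FPKM values as 12500000 to 23000000 fragments per library, and FPKM summed to between 677739 and 822230. Epithelial markers were expressed for 4 of 10 genes, with KRT18 at a mean FPKM of 103, KRT8 at 13.0 and CDX2 at 9.69. The remaining expressed marker, EPCAM, had a mean of 5.45 on day 30 and 0.513 on day 4. CDH1, KRT19 and CEACAM5 had means of 0.0144, 0.0825 and 0.00121, and KRT20, VIL1 and CDX1 were listed at 0 throughout. The summed epithelial list, of which KRT18 made up most, ranged from 119 to 151 FPKM on day 30 and from 98.1 to 149 on day 4. Of 14 immune markers only CD68, a lysosomal protein, was expressed, with a mean FPKM of 455. It made up nearly all of the summed immune list, 202 to 253 FPKM on day 30 and 634 to 764 on day 4, whereas the leukocyte gene PTPRC and the T-cell gene CD3E were listed at 0 in all 8 libraries. The 8 fibroblast and endothelial markers summed to at most 0.027 FPKM. In such bulk samples, fewer cells of a type and less RNA per cell cannot be told apart.

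The levels of the 9 genes spanned 3 tiers. ISG15 and IRF3 were abundant, 6 genes lay at a few FPKM, and IFIT1 was near 0. ISG15 (GRCh37 chr1:948877-949920) had FPKM of 96.2, 114, 87.4 and 100 on day 30 (DMSO, then NCD38, then the conjugates NCD38-β2P4 and NCD38-β2PIPP), and 165, 204, 134 and 110 on day 4 in the same order, which is kept below. Its mean of 127 lay at the percentile 93.5 of expressed genes. It was the highest of the 9 genes in 8 of 8 libraries.

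IFI6 (chr1:27992575-27998703) had FPKM of 2.32, 3.64, 3.04 and 4.32 on day 30, and 5.11, 5.64, 5.40 and 3.46 on day 4. Of its annotated transcript, 26.6% is shared on the same strand with a long non-coding RNA. IFIT1 (chr10:91152380-91166244) had 0.0611, 0.199, 0.357 and 0.0971 on day 30, and on day 4 it was listed at 0 in 3 libraries and at 0.119 with NCD38-β2PIPP. Although all 3 genes held ISRE letters in more than 1 place, their mean FPKM was 127, 4.12 and 0.104.

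**Figure D1:**
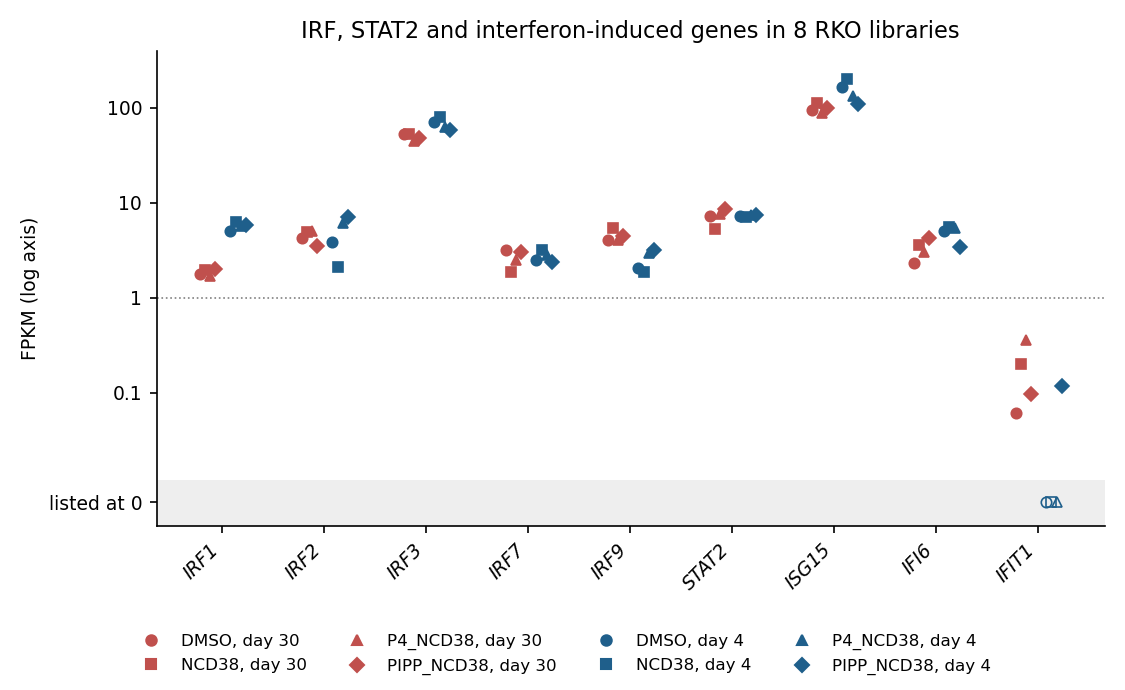
FPKM of the 9 genes on a log axis in each of 8 RKO libraries, with 1 point per library, colour for the day and marker shape for the treatment. Open points in the grey band are listed at 0, and the dotted line at 1 is the level for a gene to be called expressed. ISG15 and IRF3 stand above 40 in every library, and IFIT1 stays below 1. IRF1 and IRF3 are higher and IRF9 is lower in the day 4 libraries.

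Among the IRFs, IRF3 was the highest in 8 of 8 libraries. IRF3, the latent factor that is activated by phosphorylation, lies at chr19:50162829-50169114. It had FPKM of 52.5, 53.7, 44.6 and 47.8 on day 30, and 71.8, 80.2, 63.2 and 58.4 on day 4. It thus stood at the percentile 86.8 of expressed genes with a mean of 59.0.

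IRF2 (chr4:185308883-185395704), known as an antagonist of IRF1, had 4.30, 4.91, 5.08 and 3.54 on day 30, and 3.87, 2.11, 6.20 and 7.03 on day 4. IRF1 (chr5:131817301-131826465), an activator that is itself induced by interferon, had 1.77, 1.95, 1.70 and 2.02 on day 30, and 5.11, 6.30, 5.70 and 5.86 on day 4. The 4 day 30 libraries were all below the 4 day 4 libraries for IRF1, while the days overlapped for IRF2. IRF9 (chr14:24630474-24635774) had 4.05, 5.44, 4.06 and 4.5 on day 30, and 2.08, 1.85, 3.0 and 3.16 on day 4. IRF7 (chr11:612555-615950), the main amplifier of type I interferon in many cells, had 3.18, 1.87, 2.48 and 3.01 on day 30, and 2.52, 3.20, 2.81 and 2.38 on day 4. IRF9 did not overlap between the days, in the direction opposite to IRF1, and IRF7 overlapped. The days did not overlap for IRF3 either, which was higher on day 4. The share of all genes without overlap is not given here, but limma called 61.9% of them between the days.

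STAT2 (chr12:56735381-56753891), the partner of IRF9 in ISGF3, was the steadiest of these genes on day 4. It had 7.32, 5.25, 7.69 and 8.53 on day 30, and 7.32, 7.18, 7.42 and 7.54 on day 4.

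By mean FPKM the order was ISG15, IRF3, STAT2, IRF2, IFI6, IRF1, IRF9, IRF7 and IFIT1. The steps from ISG15 to IRF3, from IRF3 to STAT2 and from STAT2 to IRF2 held in 8 of 8 libraries, as did that from IRF7 to IFIT1. The middle of the order was not separated. IRF2 exceeded IFI6 in 5 libraries, IFI6 exceeded IRF1 in 5, IRF1 exceeded IRF9 in 4 and IRF9 exceeded IRF7 in 6. The 4 libraries with IRF1 above IRF9 were the 4 of day 4.

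Other IRF and STAT genes were then examined, since IRF motifs were among the motifs that the study considered. IRF1, IRF2, IRF3, IRF5, IRF7 and IRF9 were expressed. IRF5, a factor downstream of Toll-like receptors, was second to IRF3 in 8 of 8 libraries, with 12.8, 12.3, 12.1 and 11.9 FPKM on day 30 and 23.1, 26.8, 22.4 and 18.7 on day 4. IRF4 was above 0 in 2 libraries, at no more than 0.0271 FPKM. IRF8 was listed at 0 in all 8 libraries.

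Among the STATs, STAT6, which responds to interleukin-4, had the highest mean at 50.6 FPKM, followed by STAT5B at 12.1 and STAT3 at 10.6. STAT2 at 7.28 and STAT5A at 6.85 were close. STAT4 had a mean of 0.066.

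**Figure D2:**
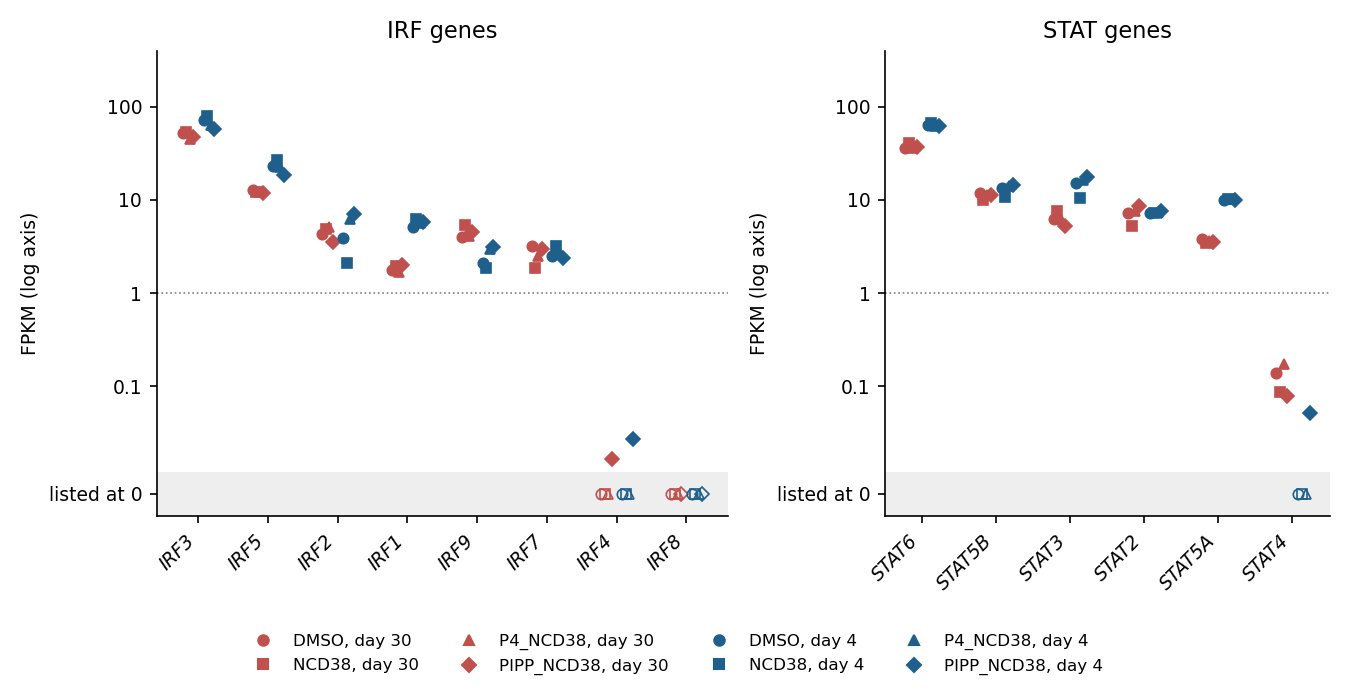
FPKM of IRF genes (left) and STAT genes (right) on log axes, ordered by mean, with 1 point per library, colour for the day and marker shape for the treatment. Open points in the grey band are listed at 0. IRF3 leads the IRFs and IRF5 is second, IRF8 is listed at 0 throughout, and STAT4 lies below 1.

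The comparison with DMSO asked whether inhibition of LSD1, with or without a polyamide, moved these genes. None of the 8 expressed genes changed 2-fold against DMSO of the same day in any of 6 comparisons. Ratios are given as log2 of FPKM plus 1, and the added 1 makes the change of low genes smaller. Over all expressed genes, the share past 2-fold on day 30 was 1.66% for NCD38, 1% for NCD38-β2P4 and 1.17% for NCD38-β2PIPP, and 5.41%, 1.91% and 11.2% on day 4. With 1 library per condition, a single ratio has no replicate check.

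The median log2 ratio of the 8 genes was 0.12, -0.02 and 0.09 on day 30, beside 0.06, 0.06 and -0.01 for all expressed genes. On day 4 it was 0.14, 0.09 and -0.01, beside -0.21, 0.09 and 0.17. IRF1 had the narrowest range of ratios in the 6 comparisons, from -0.04 to 0.26. STAT2 ranged from -0.41 to 0.20, IRF9 from -0.12 to 0.43, IRF3 from -0.29 to 0.16 and IRF7 from -0.54 to 0.25.

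The lowest and the highest ratio both belonged to IRF2 on day 4. Its ratios were -0.65 with NCD38, and for the conjugates 0.57 (NCD38-β2P4) and 0.72 (NCD38-β2PIPP). IRF2 was thus lower with NCD38 and higher with both conjugates. In the same comparisons the ratios of all expressed genes correlated with the GC content of the transcript, with a Spearman rho across genes of 0.59, -0.53 and -0.69. IRF2 has the lowest GC content of the 8 genes, 45.2%. After subtraction of the GC trend its ratios were -0.06, 0.32 and 0.22.

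ISG15 had ratios of 0.24 and 0.30 with NCD38 on day 30 and day 4, of -0.14 and -0.30 with NCD38-β2P4, and of 0.06 and -0.58 with NCD38-β2PIPP. Subtraction of the GC trend left 0.04 with NCD38 on day 4 and -0.46 with NCD38-β2PIPP. IFI6 had ratios of 0.49, 0.28 and 0.68 on day 30 and 0.12, 0.07 and -0.45 on day 4. The counting half-width (95%) estimated for IFI6, for the ratio without the added 1, was between 0.49 and 0.70, against 0.09 to 0.14 for ISG15. These widths cover counting error only.

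**Figure D3:**
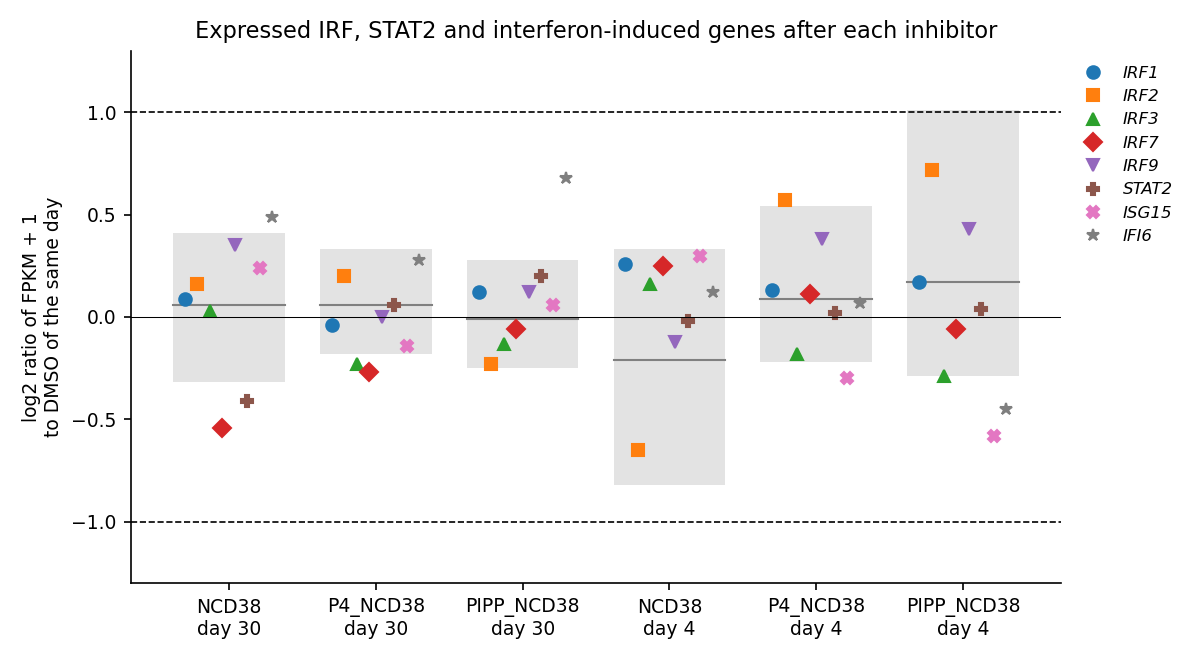
Log2 ratio of FPKM plus 1 to the DMSO library of the same day, for 8 expressed genes and 6 comparisons, with 1 point per gene. Grey boxes span the 10th to 90th percentile of all expressed genes, grey lines are their medians and dashed lines mark 2-fold. All points lie between -0.65 and 0.72.

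A fit over both days was the only test that the design allowed. Limma was fitted to all expressed genes with day and treatment as terms, so that the days stood in for replicates. A response that differed between the days counted as error in this fit, so one confined to either day alone could be missed. Of the 8 genes, 0 were called against DMSO for any of the 3 inhibitors at an adjusted p under 0.05, and 0 had an unadjusted p under 0.05. The share of all genes called was 0.0368% for NCD38, 0.0184% for NCD38-β2P4 and 0.0184% for NCD38-β2PIPP, and 1.33%, 0.295% and 0.571% had an unadjusted p under 0.05. The lowest unadjusted p of the 8 genes was 0.243, 0.214 and 0.2 in the limma contrasts. Standard errors lay between 0.15 and 0.43. With NCD38, IRF1 differed by 0.17 with a 95% interval from -0.33 to 0.68, and STAT2 by -0.22 with an interval from -0.77 to 0.34. The interval of IRF2, from -1.32 to 0.83, holds changes of more than 2-fold. For the mean of the 3 inhibitors against DMSO, 0 of 8 genes were called, with differences from -0.11 to 0.20, and 0.0276% of all genes were. An unadjusted limma p under 0.05 was found for 0 of the 8 genes and for 0.341% of all genes.

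The compounds were also compared with each other at the matched dose and days, in 2 contrasts over the 8 genes. NCD38-β2P4 and NCD38-β2PIPP, which differ by the imidazole, differed by -0.10 to 0.13 for the 8 genes. None was called by limma and 0 had an unadjusted p under 0.05, beside 0.0276% and 0.313% of all genes. For IRF3 the difference was 0.01 with an interval from -0.36 to 0.37, for ISG15 it was 0.04 with an interval from -0.48 to 0.56, and for IRF2 the interval was wide, from -0.94 to 1.21. These intervals do not show that the conjugates act alike.

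The mean of both conjugates was compared with NCD38, which carries no polyamide. In the limma contrast 0 of 8 genes were called, 1 had an unadjusted p under 0.05, and 0% of all genes were called. That gene was ISG15, for which the conjugates minus NCD38 gave -0.51 (SE 0.18) with an interval from -0.96 to -0.06. Its limma p was 0.0327 unadjusted and 0.486 adjusted over all genes, and 7.8% of all genes had an unadjusted p under 0.05. The ISG15 difference ranged from -0.68 to -0.33 under 15 alternatives, and -0.33 was the value with the GC trend subtracted. IRF3 was at -0.30 with an interval from -0.62 to 0.01, and IRF2 at 0.56 with an interval from -0.37 to 1.49. With the GC trend subtracted, IRF3 was at -0.16 and IRF2 at 0.09. Over all expressed genes this contrast correlated with the GC content of the transcript, with a Spearman rho of -0.68.

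The libraries of day 30 differed from those of day 4 in most genes. In the limma fit 61.9% of all genes were called, 30.2% higher and 31.7% lower on day 30. Of the 8 genes, 4 were called, 1 higher and 3 lower, which is not above that share. Day of collection and any difference in the preparation or sequencing of the libraries cannot be told apart. The difference followed GC content closely, with a Spearman rho across genes of -0.68. When all genes were put in 5 equal bins by GC content, from the lowest bin to the highest the median log2 difference went from 1.34 over 0.56, -0.22 and -0.66 to -0.74.

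IRF1 was lower on day 30, with a log2 difference of -1.24 (SE 0.14), an interval from -1.59 to -0.88 and a limma adjusted p of 0.00127. With the GC trend subtracted IRF1 was still lower, at -0.74 with an adjusted p of 0.00309. It was called under 16 of 16 alternatives, with adjusted p from 3.86e-05 to 0.017. These alternatives include the fits without 1 library, in which the days of a treatment are not separate checks. IRF9 was higher on day 30 by 0.66 (SE 0.20) with a limma adjusted p of 0.032, and by 1.25 with the GC trend subtracted. It was called under 11 of 16 alternatives, with adjusted p from 0.00156 to 0.136.

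IRF1 and IRF9 have similar GC content, 53.0% and 54.7%. Their ratio within a library needs no scaling between libraries, and it was chosen after the values were seen. The FPKM ratio of IRF1 to IRF9 was 0.437, 0.358, 0.419 and 0.448 on day 30, and 2.45, 3.41, 1.90 and 1.85 on day 4. Its geometric mean went from 2.33 at the earlier day to 0.414 at the later, so the order of the pair was reversed in all 4 treatments. Another protein-coding entry shares 93.1% of the IRF9 transcript on the same strand, and 16.3% of the IRF1 transcript is overlapped by an antisense RNA. Fragments of such entries may have been split by the estimate.

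IRF3 was lower on day 30, with a difference of -0.45 (SE 0.10) and a limma adjusted p of 0.013, but was higher at 0.27 with the GC trend subtracted. ISG15 was lower, with a difference of -0.59 (SE 0.15) and an adjusted p of 0.017, and stood at 0.11 with the GC trend subtracted. Their GC contents are 61.3% and 64.2%. After rescaling of the libraries by the median ratio, which moved the median of all genes from -0.02 to 0.25, IRF3 and ISG15 were at -0.14 and -0.28 and neither was called. The calls of IRF3, ISG15 and IRF9 were each lost in 4 of 8 fits that left out 1 library, those without DMSO or NCD38-β2P4 of either day. With 1 library per condition, leaving out either day of a treatment drops that treatment from the day difference. The fits without either of its libraries are therefore not separate checks.

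The others did not pass the test. The difference was -0.01 for IRF2, -0.05 for IRF7, -0.05 for STAT2 and -0.45 for IFI6, with intervals from -0.76 to 0.75 for IRF2 and from -0.44 to 0.35 for STAT2. With the GC trend subtracted IFI6 was at 0.20 and STAT2 at 0.27, and neither was called. IRF7 has the highest GC content, 66.6%, and with the GC trend subtracted it was at 0.62 with an adjusted p of 0.00723. IRF5 was lower on day 30, with a difference of -0.83 and an adjusted p of 0.00346, and stood at -0.14 with the GC trend subtracted.

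**Figure D4:**
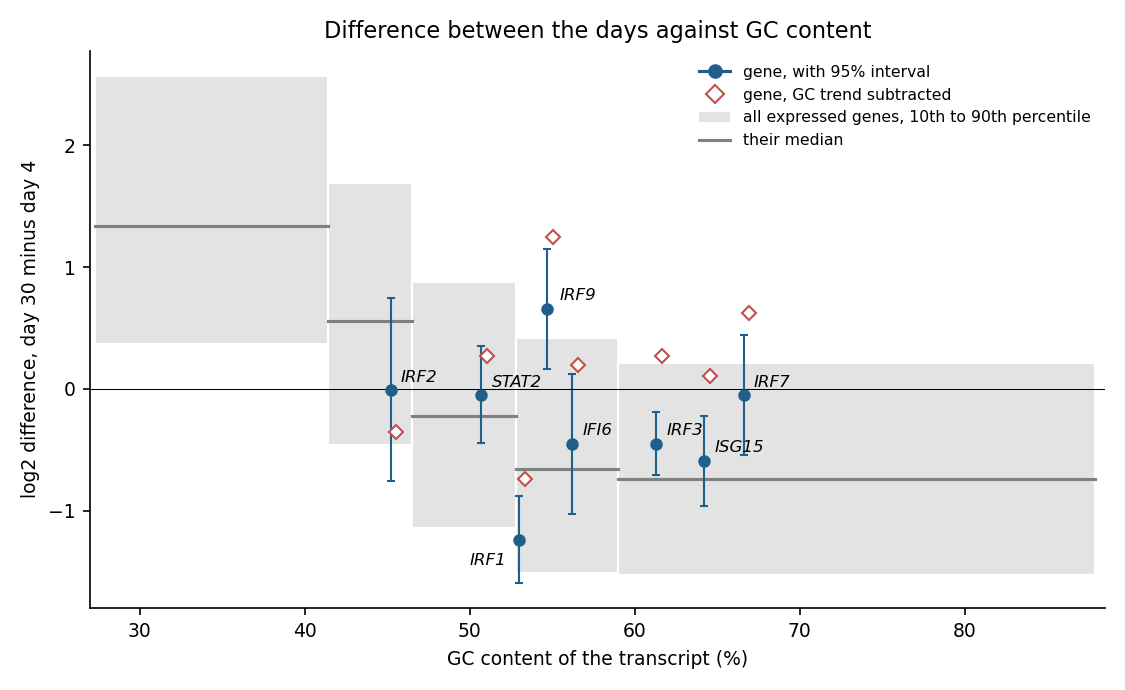
Log2 difference between day 30 and day 4 against the GC content of the transcript, for 8 expressed genes with 95% intervals from limma (circles) and with the GC trend subtracted (diamonds). Grey boxes span the 10th to 90th percentile of all expressed genes in each of 5 bins of GC content, with their median as a line. IRF1, with a GC content of 53.0%, lies at -1.24, and IRF9, with 54.7%, lies at 0.66. The box of their bin spans -1.51 to 0.42.

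The rest of the pathway was described from lists of genes. Of 22 interferon genes, 21 were in the table, 3 were above 0 in any library and 0 were expressed. IFNE had the highest mean, 0.15 FPKM, with 0.698 FPKM as its highest value, and was listed at 0 in the 4 day 4 libraries. IFNA1 and IFNA2 were each above 0 in 1 library, at 0.0752 and 0.0538 FPKM. Of 9 receptor and JAK kinase genes 7 were expressed, led by IFNGR2, a chain of the interferon gamma receptor, at a mean of 47.3 FPKM, the kinase TYK2 at 17.8 and the shared receptor chain IL10RB at 15.3. Of 14 sensors and adaptors 8 were expressed, led by the adaptors MYD88 at 21.4, TICAM1 at 15.8 and MAVS at 10.2. Among the sensors MB21D1 was expressed at 6.52, while DDX58, IFIH1, TLR3, DHX58 and ZBP1 had means of at most 0.533 FPKM. The adaptor TMEM173 was not expressed either, at 0.0125.

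Of 60 interferon-induced genes 34 were expressed and 18 had a mean under 0.1 FPKM. The highest were IFITM2 at 607 and IFITM3 at 321, which restrict viral entry and are near-identical in sequence, so that fragments may be split between them, and BST2 (tetherin) at 378. ISG15 was also among the 5 genes of the list at a mean of 100 or more, whereas IFIT1 was among the 8 between 0.1 and 1. Of the 6 genes for conjugation of ISG15 to proteins 4 were expressed. ISG15 itself led them, followed by its conjugating enzyme UBE2L6 at 52.1 and the ligase TRIM25 at 18.1. Of 14 genes that restrain the pathway 13 were expressed, led by the corepressor IRF2BP1 at 15.5, PIAS4 at 15.1 and IRF2BP2 at 12.6.

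No gene of these lists passed 2-fold with the same sign on both days for the same inhibitor, and limma called none of them against DMSO for any inhibitor. Over all genes, 1% to 11.2% were past 2-fold in a single comparison, and limma called at most 0.0368% for an inhibitor. The share past 2-fold on both days is not given here. On day 4 alone, JAK1 had a log2 ratio of -1.12 with NCD38, and of -0.56 with the GC trend subtracted. Of the 34 expressed interferon-induced genes, 4 were 2-fold higher with NCD38-β2PIPP on day 4, beside 10.3% of all expressed genes. They were IFI16, PARP14, SP100 and EIF2AK2, with log2 ratios from 1.12 to 1.24, named here after their values were seen. With the GC trend subtracted they were at 0.36, 0.60, 0.43 and 0.34, all under 2-fold. Of the genes that restrain the pathway, PIAS2 and PTPN11 were 2-fold higher in the same library, and were at 0.23 and 1.26 with the GC trend subtracted.

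Between the days, 9 of the 34 expressed interferon-induced genes were called higher on day 30 by limma and 11 lower, beside 30.2% and 31.7% of all genes, with a median of -0.16 beside -0.02 for all genes. Among the IRFs 1 was higher and 3 were lower, and among the STATs 0 were higher and 3 lower. STAT5A differed by -1.27, STAT3 by -1.10 and STAT6 by -0.75, and with the GC trend subtracted by -0.61, -0.85 and -0.10. Of the 4 expressed ISG15 conjugation genes 0 were higher and 3 lower. Of 7 receptor and kinase genes 1 was higher and 2 lower, of 8 sensors and adaptors 1 and 4, and of 13 restraining genes 2 and 5. The shares of all genes, 30.2% higher and 31.7% lower, stand beside these counts too, and nothing particular to the lists is read from them.

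The genes most like each of the 8 in their pattern were found by the Pearson correlation of log2 FPKM plus 1 over 8 libraries, after the mean of each day was subtracted. Libraries share depth and base composition, so these values are a description. IFI6 was most like HLA-C (0.96), HLA-H (0.945) and PLEKHG3 (0.942). HLA-C and HLA-H are near-identical genes whose fragments may be split. ISG15 was most like EIF5A (0.99), ERGIC3 (0.989) and FAM176B (0.985), and IRF3 was most like EIF5AL1 (0.992), MVD (0.987) and ESRRA (0.977). IRF2 was most like ZNF618 (0.998), NUDT4P1 and SLC25A12 (0.995 each), and IRF9 was most like TRERF1 (0.986), METTL4 and FUT4 (0.983 each). For IRF1 they were EME2 (0.981), SNORA24 (0.93) and TMEM145 (0.909), for IRF7 METTL1 (0.982), SHMT1 (0.981) and PRPF31 (0.975), and for STAT2 LOC100652816 (0.989), STK36 (0.979) and SDC3 (0.973). No other gene among the 8 and no other IRF or STAT was among these 3 genes for any of them.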

How the data were processed

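Stranded mRNA libraries of RKO cells were sequenced, 1 for each of 8 conditions. The authors deposited FPKM per gene from Cufflinks, with no counts. Their methods name TopHat, whereas the submitters' processing notes list HISAT2 2.2.1.0, BWA 0.5.9, Cufflinks, bedtools 2.20.1 and hg19 for the whole series. The annotation is not given in the sources used here. For day 4, the methods and the labels differ in the unit of the dose, and that of the labels is used here. The other 30 samples of the series are ChIP-seq and were not used here.

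Of 25594 entries, 90 with a repeated name were left out. Genes with a mean FPKM of at least 1 were called expressed. Log2 values were taken after adding 1. Each inhibitor was set against DMSO of the same day, called at 2-fold without a test. Limma 3.58.1 (R 4.3.3, with a trend) was fitted to 10865 genes with day and treatment as terms, with 3 residual degrees of freedom, and p-values were adjusted by Benjamini-Hochberg over all of them. These p-values measure the spread between libraries. The fit was tested on simulated data. Transcript length, GC content and positions came from GENCODE release 44 on GRCh37, matched for 93.7% of expressed genes. The GC trend was a lowess curve (span 0.3) for each library. Depth was estimated from FPKM that pile up at 1 fragment, and counts were not recovered. Alternatives changed the pseudocount, filter, scaling, GC trend, comparator, limma trend and libraries.

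The 9 genes and the lists were chosen with earlier results of these data known. Named are the 9 genes, the other IRF and STAT genes, the 3 genes of highest mean FPKM of each list, any list gene past 2-fold with the same sign on both days, up to 3 expressed genes of each marker list, and the 3 genes most like each member. Some genes of the lists are not reported here. Python 3.11.15 was used.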

Additional observations from a re-analysis of the deposited data

Results flagged for a closer look

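IFI6 with NCD38-β2PIPP moved in opposite directions on the 2 days, each by at least its estimated counting half-width. Without the added 1 its log2 ratio to DMSO was 0.90 on day 30, with a half-width of 0.57, and -0.56 on day 4, with a half-width of 0.56. The value of day 4 equals its half-width at this precision. With the added 1 and the GC trend subtracted the ratios were 0.69 and -0.40. Each day has 1 library per condition, and the difference between the days was not tested. No other pair of gene and inhibitor among the 8 expressed genes was of this kind.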

How the results depend on the processing

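The labels carry no replicate numbers, so libraries could not be paired by culture. Day and treatment were both terms of the fit, so the days were compared within treatments and the inhibitors with DMSO within days. Of 1350 values under alternatives, 1278 kept their call or moved within their spread, 15 lost a call, 2 gained one, 3 reversed with a call and 52 moved. With the GC trend subtracted, the day differences of IRF3 (0.27), IRF7 (0.62) and ISG15 (0.11) reversed, with a call in at least 1 of the fits compared. Those of IFI6 (from -0.45 to 0.20) and STAT2 (from -0.05 to 0.27) changed sign with no call in either. Rescaling by the median ratio lowered the number of the 8 genes called between the days from 4 to 2, and the genes left were IRF1 and IRF9. It also moved the split of all genes called from 3277 higher and 3445 lower to 4290 and 2508, and a filter of at least 1 FPKM in all 8 libraries moved it to 1632 and 3200, which keeps only genes above that level on both days. Without 1 library, 1 to 5 of the 8 genes were called between the days. Such fits have fewer residual degrees of freedom, and those without either day of a treatment are not separate checks of the day difference. The share of all genes called in each is not given here, so nothing particular to the 8 genes is read from these counts. The count was 1, IRF1, without DMSO or NCD38-β2P4 of either day, and the cause was not tested. It was 5, with IFI6 at -0.69, without NCD38-β2PIPP of either day. In all inhibitor contrasts it was 0 to 0. When DMSO of the other day served as comparator, the genes past 2-fold numbered 2 for NCD38 and 1 for each conjugate on day 30, and 3 for NCD38 and 1 for each conjugate on day 4, beside 0 in each with DMSO of the same day, and IRF1 was among them in all 6. That comparator also differs in day, and between the DMSO libraries of the 2 days 41.4% of all expressed genes were past 2-fold. The number of libraries, 1 per condition, limits the precision of every ratio.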

Other observations

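The IFIT genes, named here after their values were seen, were uneven. IFIT5 had FPKM of 5.56, 6.31, 6.59 and 5.83 on day 30 with DMSO, NCD38, NCD38-β2P4 and NCD38-β2PIPP, and 0.443, 0.273, 0.834 and 1.54 on day 4. Its log2 difference between day 30 and day 4 was 2.05 with a limma adjusted p of 0.00102, and 0.59 with an adjusted p of 0.0045 when the GC trend was subtracted. IFIT3 had a mean of 0.50 on day 30 and 0.245 on day 4, and IFIT2 had 0.132 and 0.032. The transcripts of the IFIT genes have a GC content from 37.6% (IFIT5) to 44.4% (IFIT3). MX1, another gene induced through ISGF3, had FPKM from 5.50 to 10.2 over the 8 libraries, whereas RSAD2 was above 0 in 1 library and CXCL10 in none.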
